A study of Mus musculus with 3 samples.

Results

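Germ cells carry genes for meiosis, for germ cell RNA binding and for the piRNA pathway that most somatic cells keep silent. In the account below, 38 such genes were followed in mouse embryonic stem cells (ESCs), taken by gene symbol from a list of germ cell genes, and all 38 were found among the 24006 gene symbols counted. They were placed by known role as 4 RNA-binding or germ cell identity genes, 9 other germ cell and testis genes, 8 genes of meiotic recombination and cohesin, 10 piRNA pathway genes and 7 genes of the chromosome axis and synaptonemal complex.

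In meiosis, homologous chromosomes are cut, paired and joined along a protein axis, and cohesins and synaptonemal complex proteins that are specific to germ cells build that axis. The piRNA pathway uses PIWI proteins loaded with small RNAs to silence transposons in the germline. In ESCs many of these genes are held down by DNA methylation and by a Polycomb complex that contains MGA, MAX and E2F6, which bind E-box and E2F motifs, yet a number of them are transcribed at low levels in serum culture.

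Polyadenylated RNA was sequenced from a DAXX knockout clone (KO2-3), an ATRX knockout clone (KO1-44) and a wildtype clone (WT26), all male, isogenic, of C57BL/6x129sV background and obtained after CRISPR targeting. DAXX is a histone chaperone for the variant H3.3 and ATRX is the chromatin remodeller it works with. Each genotype was 1 clone and 1 library, so a difference between clones and a difference between genotypes cannot be told apart, no p-value was computed and no difference has a replicate check. Cells had been moved from feeder cells to gelatin and grown with serum and leukaemia inhibitory factor.

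Reads on transcripts numbered 11224100 in DAXX knockout cells, 13988376 in ATRX knockout cells and 13981915 in wildtype, and 77.0% to 78.9% of all reads were aligned. Daxx had 623 reads in DAXX knockout cells, 972 in ATRX knockout cells and 1125 in wildtype, so that 73.6% of the wildtype level remained in the library labelled as its knockout. Atrx had 3576 reads in DAXX knockout cells, 1800 in ATRX knockout cells and 4582 in wildtype, which left 41.2% in ATRX knockout cells. The sources used here do not give the position of either targeted change, so these reads do not check the labels. Of the Y-linked genes, Ddx3y had 0 reads in DAXX knockout cells, 0 in ATRX knockout cells and 775 in wildtype, and Eif2s3y had 32 reads in DAXX knockout cells, 705 in ATRX knockout cells and 768 in wildtype. Uty had 17 reads in DAXX knockout cells, 178 in ATRX knockout cells and 434 in wildtype. Kdm5d had reads in every library, 49 in DAXX knockout cells, 35 in ATRX knockout cells and 88 in wildtype. The libraries therefore differ in Y-linked RNA, though not alike for each gene, although all 3 clones are labelled male. ESC markers were high in all libraries. Over 10 genes, their summed levels were 6170 in DAXX knockout cells, 6210 in ATRX knockout cells and 5760 in wildtype. These levels are in CPM (reads scaled to library size with the trimmed mean of M values). Of the 10, 0 were called in either knockout against wildtype, which says little for so few genes.

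Promoters are shown for the members called lower in both knockouts that have an entry, and for a pair of well expressed members called in neither, because the factors that hold germ cell genes down in ESCs recognise short motifs there. The sequences are from RefSeq on GRCm38.p6, run 5′ to 3′ on the gene's own strand, and end before the annotated start, so some are shorter than the 250-base windows counted further on. Where a gene has more than 1 window, the first is printed. Capitals mark the E-box CACGTG and the E2F core TCCCGC or its reverse complement GCGGGA. Slc25a31 (chr3:40708621-40708854, plus strand) was the one of the printed sequences with an E-box, and Tex19.1 (chr11:121145893-121146142, plus strand) and Rpl10l (chr12:66284402-66284651, minus strand) each carried 1 E2F core.
Slc25a31: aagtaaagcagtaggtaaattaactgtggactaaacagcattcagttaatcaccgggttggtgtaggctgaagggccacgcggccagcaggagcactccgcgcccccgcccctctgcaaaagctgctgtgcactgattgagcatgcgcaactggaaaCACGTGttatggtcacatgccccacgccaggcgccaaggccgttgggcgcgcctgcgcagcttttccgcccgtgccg
Tex19.1: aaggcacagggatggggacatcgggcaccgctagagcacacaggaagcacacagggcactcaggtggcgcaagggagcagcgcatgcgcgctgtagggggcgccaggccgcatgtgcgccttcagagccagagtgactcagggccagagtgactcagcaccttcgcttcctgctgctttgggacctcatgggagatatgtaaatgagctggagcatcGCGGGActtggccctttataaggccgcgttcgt
Rpl10l: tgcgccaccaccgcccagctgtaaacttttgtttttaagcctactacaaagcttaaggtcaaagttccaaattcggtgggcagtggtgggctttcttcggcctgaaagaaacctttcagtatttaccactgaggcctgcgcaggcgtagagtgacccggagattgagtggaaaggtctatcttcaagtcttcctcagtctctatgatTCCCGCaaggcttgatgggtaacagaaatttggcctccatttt

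Dazl (chr17:50293637-50293870, minus strand) and Hormad2 (chr11:4441106-4441332, minus strand) held neither motif in these letters. Of the members called in neither knockout, Syce2 (chr8:84871861-84872110, plus strand) had 1 E2F core and Kit (chr5:75574737-75574915, plus strand) had 2, in the sequences printed. A second window of Syce2, which starts at base 84872008 of chromosome 8, also held an E-box and the longer E2F form GCGGGAA or TTCCCGC.
Dazl: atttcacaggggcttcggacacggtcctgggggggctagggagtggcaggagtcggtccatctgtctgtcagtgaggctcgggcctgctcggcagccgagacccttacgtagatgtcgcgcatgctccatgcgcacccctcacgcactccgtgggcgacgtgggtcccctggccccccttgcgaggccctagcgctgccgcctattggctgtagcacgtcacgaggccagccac
Hormad2: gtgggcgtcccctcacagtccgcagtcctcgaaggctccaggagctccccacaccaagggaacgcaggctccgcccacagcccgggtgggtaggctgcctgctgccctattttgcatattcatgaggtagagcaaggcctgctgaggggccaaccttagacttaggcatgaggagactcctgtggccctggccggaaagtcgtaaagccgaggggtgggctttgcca
Syce2: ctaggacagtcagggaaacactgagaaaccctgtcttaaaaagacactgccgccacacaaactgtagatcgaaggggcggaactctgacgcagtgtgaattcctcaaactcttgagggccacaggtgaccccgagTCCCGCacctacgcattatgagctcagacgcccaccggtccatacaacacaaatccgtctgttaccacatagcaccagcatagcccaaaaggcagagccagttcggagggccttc
Kit: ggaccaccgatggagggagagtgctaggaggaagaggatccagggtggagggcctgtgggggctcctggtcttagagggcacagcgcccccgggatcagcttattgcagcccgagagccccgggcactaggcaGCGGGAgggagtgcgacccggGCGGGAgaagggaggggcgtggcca

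Promoters of 34 members matched the RefSeq table, as 42 windows of the 250 bases before a start, against 20449 windows of 16799 counted genes. Tex11, Tex15, Piwil2 and Spo11 are named only. The E-box CACGTG, which reads the same on both strands, was in 17 member windows (40.5%), against 6.88% of all windows. By gene this was 14 members (41.2%), against 7.91% of all counted genes with a promoter. TTCCCGC or GCGGGAA was in 9 member windows (21.4%), against 5.06% of all windows. The shorter core TCCCGC or GCGGGA, which lies inside the longer form and was added after the sequences had been seen, was in 16 (38.1%), against 22.2%. The median ratio of observed to expected CpG was 0.656 in member windows and 0.543 in all windows, and the median GC content was 59.6% and 56.0%. These shares are descriptions of letters in a window, and windows of 1 gene overlap.

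Motif counts were also set beside the calls described below. Among the 6 members called lower in at least 1 knockout and matched to a promoter, 2 had an E-box (Slc25a31 and Stag3) and 2 an E2F core. Among the 28 other members with a promoter, 12 had an E-box and 11 an E2F core.

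**Figure D1:**
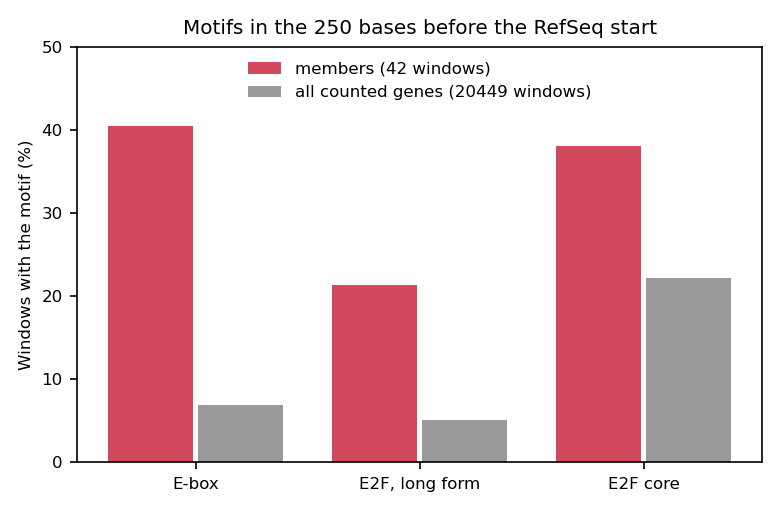
Share of promoter windows (percent, y axis) that hold each motif, for the 42 member windows (red) and the 20449 windows of all counted genes (grey). The E-box stood at 40.5% of member windows and 6.88% of all windows, and the E2F core at 38.1% and 22.2%.

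Most members were transcribed at low levels in all 3 libraries, and most were lowest in a knockout. A mean of at least 1 CPM was reached by 33 of the 38 members and 12759 of all genes. Scaled by transcript length (CPM per kilobase), the median level of those 33 was 3.26 in DAXX knockout cells, 3.51 in ATRX knockout cells and 5.46 in wildtype, beside 10.1, 10 and 9.79 over all measured genes in that order. The highest of the 3 levels was that of the DAXX knockout for 3 of the 33, of the ATRX knockout for 5 and of wildtype for 25. Over all 38 members there were 5785 reads in DAXX knockout cells, 7739 in ATRX knockout cells and 11339 in wildtype, or 530, 559 and 781 CPM in that order. In bulk RNA, fewer expressing cells and less RNA per cell cannot be told apart.

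**Figure D2:**
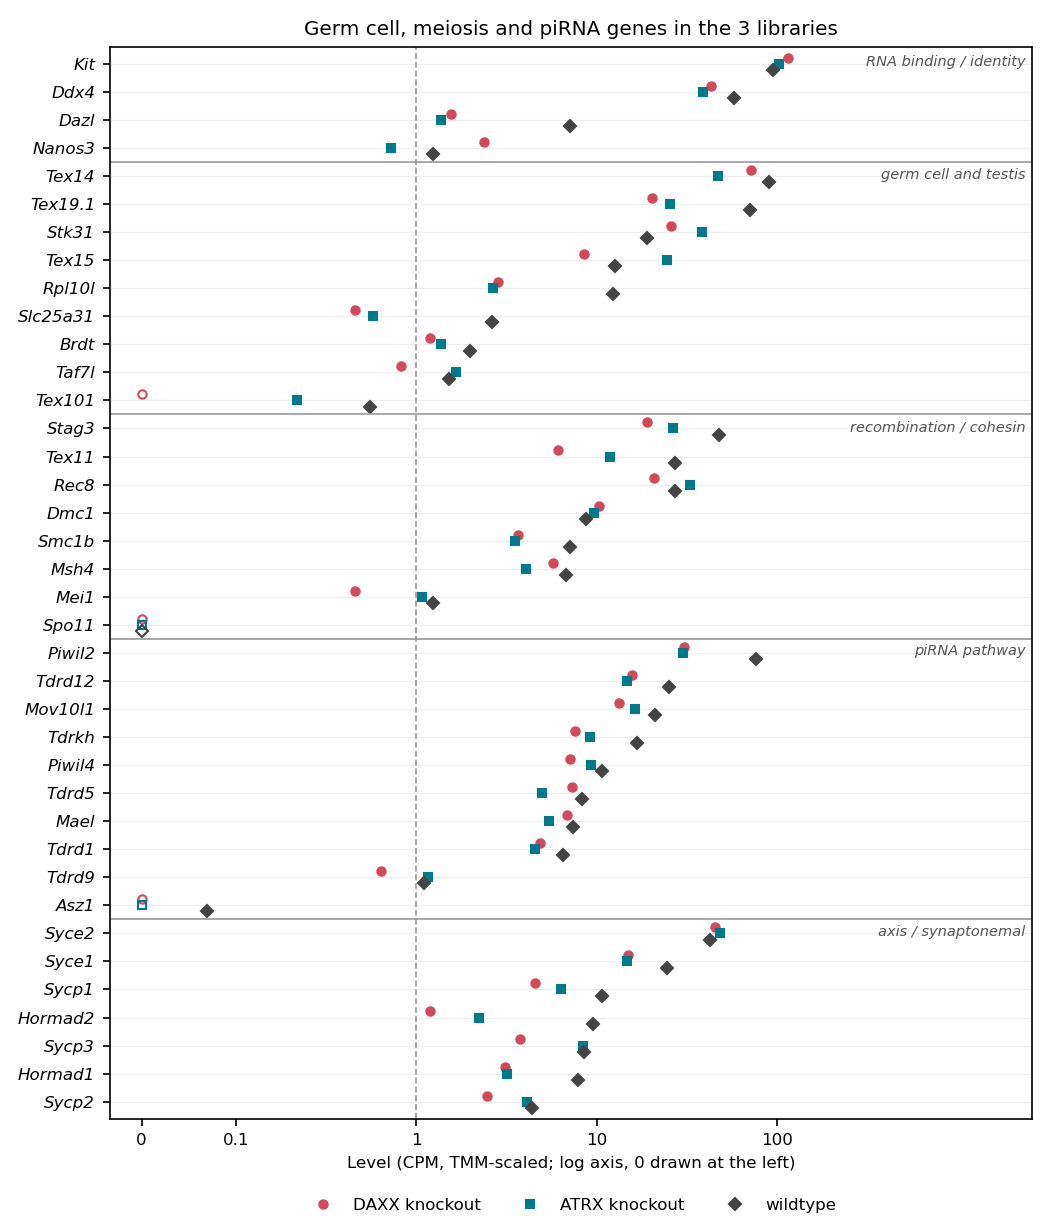
Level of each of the 38 members (x axis, CPM on a log axis with 0 drawn at the left as open symbols) in DAXX knockout cells (red circles), ATRX knockout cells (teal squares) and wildtype (dark diamonds), grouped by role, with a dashed line at 1 CPM. Wildtype was highest for 25 of the 33 members that averaged at least 1 CPM.

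Genes that reached 1 CPM in either of the libraries compared were tested, and a call required that the 95% counting interval of the fold lie wholly beyond 2-fold. Such an interval covers counting error only and compares 2 libraries. The members were chosen with earlier results of these data known. The shares and medians beside those of all genes therefore describe the list and do not test it. In the DAXX knockout against wildtype, 8 of 35 members tested were called lower, where 1.55% of all genes tested were, and 0 were called higher, where 0.487% were. In the ATRX knockout against wildtype, 6 of 35 were called lower, where 1.15% of all genes were, and 0 higher, where 0.695% were. Both comparisons share the wildtype library, so a high wildtype value enters both. In the ATRX knockout against the DAXX knockout, 0 of 34 members were called lower and 1 (Tex15) higher, where 0.362% and 0.77% of all genes were.

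The shift reached beyond the called genes. The median log2 fold of the 33 measured members was -0.71 in DAXX knockout cells and -0.73 in ATRX knockout cells against wildtype, beside 0.03 and 0.02 over all measured genes. Of the 33, 28 lay below 0 in DAXX knockout cells and 26 in ATRX knockout cells. The whole counting interval lay below 0 for 22 of 35 members tested in DAXX knockout cells and 21 of 35 in ATRX knockout cells, where 17.1% and 21.3% of all genes tested did so. Between the knockouts the median was 0.09, with 15 members below 0 and 18 above it, and it was -0.02 when the most abundant transcript alone was counted.

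**Figure D3:**
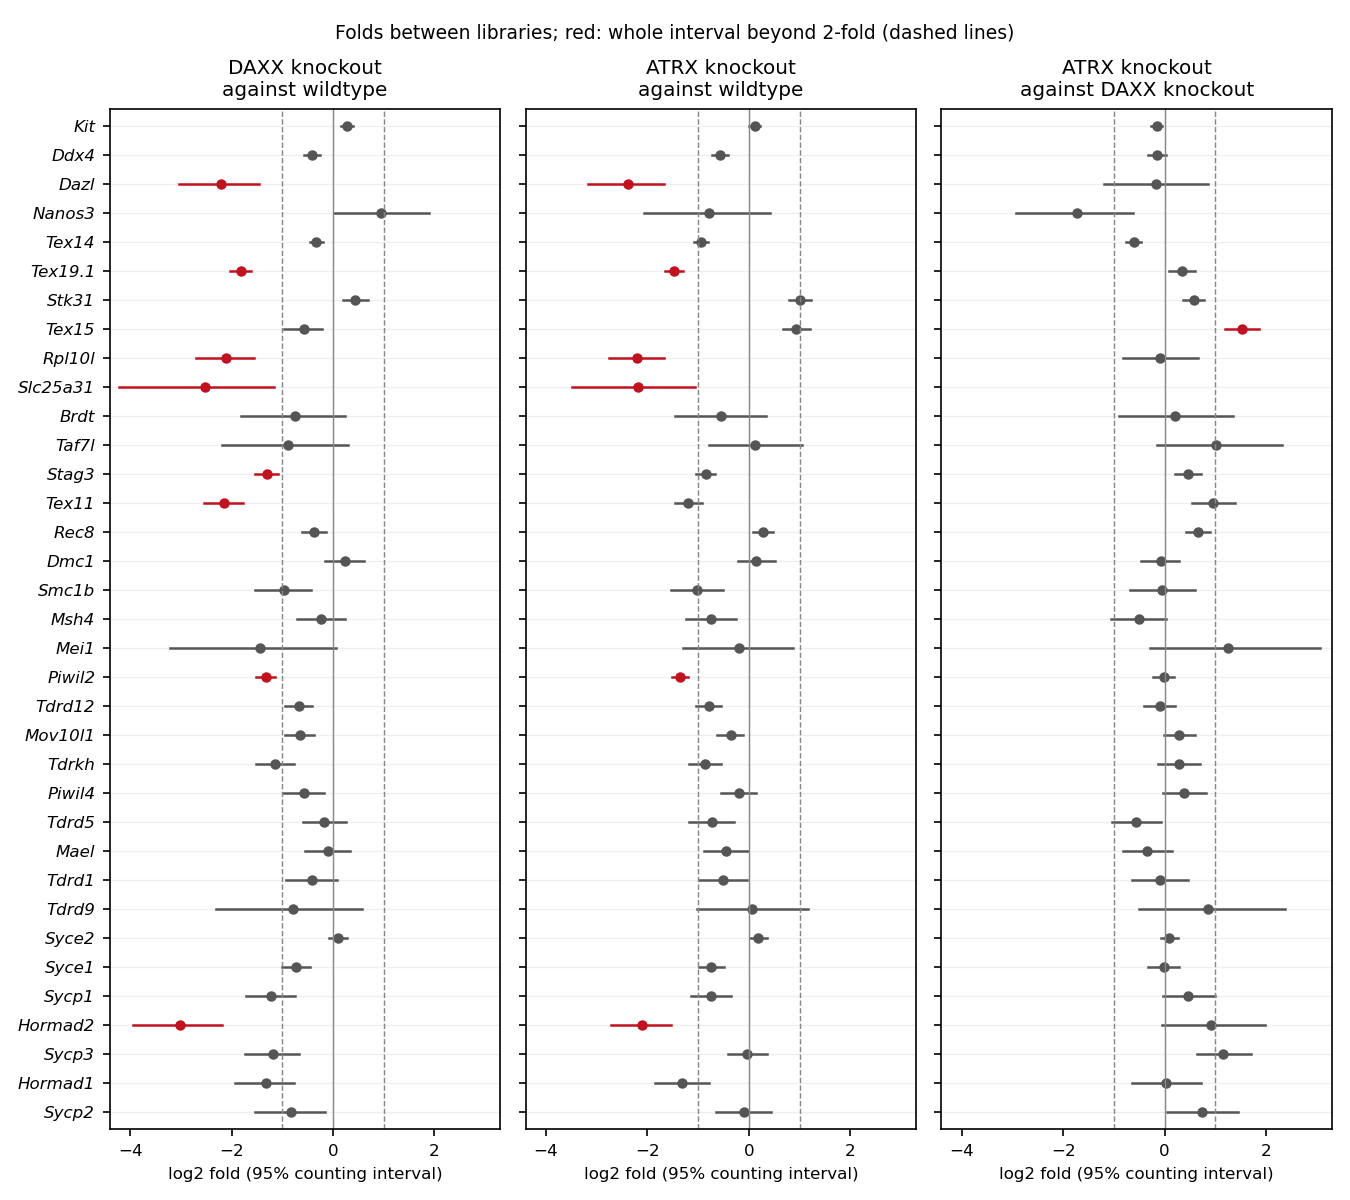
Log2 fold of each tested member (points) with its 95% counting interval (lines) in DAXX knockout cells against wildtype, ATRX knockout cells against wildtype and ATRX against DAXX knockout cells, with red marking members whose whole interval lay beyond 2-fold (dashed lines). Red lies at the left in the first and second panels, 8 and 6 members, and at the right for Tex15 in the third.

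Of the RNA-binding and identity genes, Dazl fell in both knockouts while the others were not called against wildtype. Dazl (chr17:50279395-50293636, minus strand) encodes a translational regulator needed for germ cells to enter gametogenesis. It had 17 reads in DAXX knockout cells, 19 in ATRX knockout cells and 104 in wildtype, or 1.56, 1.37 and 7.16 CPM in that order. Both knockouts were low and close to each other. Dazl fell by 2.20 on the log2 scale (interval -3.04 to -1.45) in DAXX knockout cells and by 2.38 (-3.17 to -1.67) in ATRX knockout cells, and differed between them by -0.18 (-1.20 to 0.85).

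Ddx4, the germ cell RNA helicase known as Vasa, had 471 reads in DAXX knockout cells, 537 in ATRX knockout cells and 836 in wildtype, or 43.1, 38.8 and 57.6 CPM in that order, with log2 folds of -0.42 (-0.58 to -0.25) in DAXX knockout cells and -0.57 (-0.73 to -0.41) in ATRX knockout cells against wildtype. Kit, the receptor tyrosine kinase of migrating germ cells and of many other cell types, had 1255 reads in DAXX knockout cells, 1426 in ATRX knockout cells and 1378 in wildtype, or 115, 103 and 94.9 CPM in that order. Its log2 folds were 0.28 (0.16 to 0.39) in DAXX knockout cells and 0.12 (0.01 to 0.23) in ATRX knockout cells, so it did not share the lower levels of Dazl. Nanos3, an RNA-binding protein that keeps primordial germ cells alive, had 26 reads in DAXX knockout cells, 10 in ATRX knockout cells and 18 in wildtype. Its log2 folds were 0.94 (0.02 to 1.89) in DAXX knockout cells and -0.78 (-2.06 to 0.41) in ATRX knockout cells. In ATRX against DAXX knockout cells it was at -1.72 (-2.94 to -0.62), and none of the 3 was called.

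Among the germ cell and testis genes, Tex19.1, Rpl10l and Slc25a31 fell in both knockouts, and Tex15 differed between the knockouts. Tex19.1 (chr11:121146143-121148319, plus strand), which restrains retrotransposons in germ cells and placenta, had 221 reads in DAXX knockout cells, 355 in ATRX knockout cells and 1036 in wildtype, or 20.2, 25.6 and 71.4 CPM in that order. Per kilobase it was the highest member in wildtype, at 48.1, and stood at 13.3 in DAXX knockout cells and 16.1 in ATRX knockout cells. It kept 28.4% of the wildtype level in DAXX knockout cells and 35.9% in ATRX knockout cells. Both of its transcripts were low, with 211 reads in DAXX knockout cells, 345 in ATRX knockout cells and 981 in wildtype on the longer. The shorter had 10 reads in DAXX knockout cells, 10 in ATRX knockout cells and 55 in wildtype. The neighbouring copy Tex19.2 shares 4.97% of the 36-base stretches of Tex19.1 and had 12 reads in DAXX knockout cells, 12 in ATRX knockout cells and 33 in wildtype, so reads in that stretch can belong to either copy.

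Rpl10l (chr12:66283379-66284401, minus strand) is an intronless copy of the ribosomal protein gene Rpl10 that acts in male meiosis. It had 31 reads in DAXX knockout cells, 37 in ATRX knockout cells and 178 in wildtype, or 2.84, 2.67 and 12.3 CPM in that order. The knockouts were alike, at 23.1% of wildtype in DAXX knockout cells and 21.8% in ATRX knockout cells, with log2 folds of -2.11 (-2.71 to -1.55) in DAXX knockout cells and -2.20 (-2.75 to -1.68) in ATRX knockout cells. Rpl10l shares no exact 36-base stretch with the other counted transcripts found in GENCODE M21, and near matches were not checked. Its X-linked parent Rpl10 had 13858 reads in DAXX knockout cells, 16556 in ATRX knockout cells and 17291 in wildtype, and log2 folds of 0.09 (0.06 to 0.12) in DAXX knockout cells and 0.01 (-0.03 to 0.04) in ATRX knockout cells.

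Slc25a31 (chr3:40708855-40726096, plus strand) encodes the ADP/ATP carrier of testis mitochondria. By reads it was the lowest of the called members, with 5 reads in DAXX knockout cells, 8 in ATRX knockout cells and 38 in wildtype, or 0.458, 0.578 and 2.62 CPM in that order. Its log2 folds had wide intervals, -2.52 (-4.22 to -1.17) in DAXX knockout cells and -2.18 (-3.49 to -1.06) in ATRX knockout cells. Neither call held when all libraries were thinned to the depth of the smallest, at -2.28 in DAXX knockout cells and -2.05 in ATRX knockout cells. The somatic carriers Slc25a4 and Slc25a5 lay within 0.25 of wildtype on the log2 scale in both knockouts.

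Tex15 (chr8:33516738-33585582, plus strand) is required in male germ cells for recombination and for transposon silencing. It had 93 reads in DAXX knockout cells, 339 in ATRX knockout cells and 185 in wildtype, or 8.52, 24.5 and 12.7 CPM in that order. Tex15 therefore stood apart from the other called members, highest in ATRX knockout cells and lowest in DAXX knockout cells. In the ATRX knockout against the DAXX knockout it rose by 1.52 (1.19 to 1.87). Against wildtype it was at -0.58 (-0.96 to -0.21) in DAXX knockout cells and 0.94 (0.68 to 1.21) in ATRX knockout cells, and neither was called. Both transcripts moved alike, with 72 reads in DAXX knockout cells, 275 in ATRX knockout cells and 143 in wildtype on the longer. The other had 21 reads in DAXX knockout cells, 64 in ATRX knockout cells and 42 in wildtype.

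Stk31, a testis kinase with a Tudor domain, was the other member above wildtype in both knockouts by its whole interval beside Kit, with 282 reads in DAXX knockout cells, 531 in ATRX knockout cells and 276 in wildtype and log2 folds of 0.44 (0.20 to 0.69) in DAXX knockout cells and 1.01 (0.80 to 1.23) in ATRX knockout cells. Tex14, which keeps germ cells joined by intercellular bridges, had 786 reads in DAXX knockout cells, 652 in ATRX knockout cells and 1312 in wildtype, or 72.0, 47.1 and 90.4 CPM in that order, and log2 folds of -0.33 (-0.46 to -0.20) in DAXX knockout cells and -0.94 (-1.08 to -0.80) in ATRX knockout cells. Of the other testis genes, Brdt, a bromodomain protein of spermatocytes, had 13 reads in DAXX knockout cells, 19 in ATRX knockout cells and 29 in wildtype. Taf7l, an X-linked transcription factor subunit, had 9 reads in DAXX knockout cells, 23 in ATRX knockout cells and 22 in wildtype. Tex101, a surface protein of germ cells, had 0 reads in DAXX knockout cells, 3 in ATRX knockout cells and 8 in wildtype and stayed under 1 CPM in every library. With 3 reads put in place of 0, Tex101 was 2.01-fold lower in DAXX knockout cells than in wildtype. That value takes the 8 wildtype reads as exact, so it is no firm bound, and the gene was not tested.

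In the recombination and cohesin group, Tex11 and Stag3 fell in DAXX knockout cells and were intermediate in ATRX knockout cells. Tex11 (chrX:100838648-101059667), an X-linked gene whose product promotes crossovers, had 67 reads in DAXX knockout cells, 165 in ATRX knockout cells and 394 in wildtype, or 6.13, 11.9 and 27.1 CPM in that order. It fell by 2.15 (-2.54 to -1.77) in DAXX knockout cells, and was at -1.19 (-1.46 to -0.92) in ATRX knockout cells, where the interval crossed the 2-fold limit. All 3 of its transcripts kept this order, with 18 reads in DAXX knockout cells, 58 in ATRX knockout cells and 129 in wildtype on the first. The second had 20 reads in DAXX knockout cells, 47 in ATRX knockout cells and 101 in wildtype and the third 29, 60 and 164 in that order.

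Stag3 (chr5:138280240-138312393), a cohesin subunit of meiotic chromosomes, had 209 reads in DAXX knockout cells, 365 in ATRX knockout cells and 690 in wildtype, or 5.01, 7.66 and 13.4 CPM per kilobase in that order. It fell by 1.31 (-1.54 to -1.09) in DAXX knockout cells, a call lost when the most abundant transcript alone was counted (-1.11), and was at -0.85 (-1.04 to -0.67) in ATRX knockout cells. The mitotic subunits Stag1 and Stag2 were within 0.16 of wildtype on the log2 scale in both knockouts. The difference between the knockouts was not called for either gene, at 0.96 (0.54 to 1.39) for Tex11 and 0.46 (0.21 to 0.71) for Stag3.

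Rec8, the meiotic kleisin subunit of cohesin, lay on opposite sides of wildtype in the knockouts, with 228 reads in DAXX knockout cells, 457 in ATRX knockout cells and 394 in wildtype and log2 folds of -0.38 (-0.62 to -0.14) in DAXX knockout cells and 0.28 (0.08 to 0.48) in ATRX knockout cells. Dmc1, the meiotic recombinase, had 112 reads in DAXX knockout cells, 134 in ATRX knockout cells and 127 in wildtype, and both of its intervals against wildtype covered 0. Smc1b, a meiotic cohesin subunit, had 40 reads in DAXX knockout cells, 49 in ATRX knockout cells and 104 in wildtype. The crossover factor Msh4 had 63 reads in DAXX knockout cells, 56 in ATRX knockout cells and 98 in wildtype. Part of the Msh4 sequence (4.27% of its 36-base stretches) also occurs in other transcripts. Mei1, needed for meiotic DNA breaks, had 5 reads in DAXX knockout cells, 15 in ATRX knockout cells and 18 in wildtype, and Spo11, the enzyme that makes those breaks, had 0 in every library. A count of 0 allows up to 3 reads, which is 0.275 CPM in DAXX knockout cells, 0.217 in ATRX knockout cells and 0.207 in wildtype.

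Among piRNA pathway genes, Piwil2 fell in both knockouts and the other measured members leaned lower without being called. Piwil2 (chr14:70372477-70429383), the PIWI protein known as MILI, had 333 reads in DAXX knockout cells, 416 in ATRX knockout cells and 1112 in wildtype, or 6.21, 6.11 and 15.6 CPM per kilobase in that order. It was the most abundant of the called members by reads and nearly equal in the knockouts, at 39.8% of wildtype in DAXX knockout cells and 39.2% in ATRX knockout cells. Its log2 folds were -1.33 (-1.51 to -1.15) in DAXX knockout cells and -1.35 (-1.52 to -1.19) in ATRX knockout cells, and -0.02 (-0.23 to 0.19) between the knockouts.

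All 8 piRNA members that averaged at least 1 CPM had a log2 fold below 0 in each knockout against wildtype, with a median of -0.61 in both. The largest difference after Piwil2 was that of Tdrkh, a partner of PIWI proteins in piRNA trimming, with 83 reads in DAXX knockout cells, 128 in ATRX knockout cells and 243 in wildtype and log2 folds of -1.14 (-1.52 to -0.77) in DAXX knockout cells and -0.86 (-1.18 to -0.54) in ATRX knockout cells. Tdrkh shares 5.54% of its 36-base stretches with other transcripts and exon sequence with Oaz3 on the opposite strand, so its value is uncertain. Tdrd12, a Tudor protein, had 172 reads in DAXX knockout cells, 203 in ATRX knockout cells and 367 in wildtype. Mov10l1, the helicase that feeds piRNA precursors into the pathway, had 146 reads in DAXX knockout cells, 227 in ATRX knockout cells and 306 in wildtype. Piwil4, the PIWI protein known as MIWI2, had 78 reads in DAXX knockout cells, 129 in ATRX knockout cells and 155 in wildtype. In CPM each of these 3 genes was highest in wildtype. Mael, a piRNA factor named after fly Maelstrom, had 75 reads in DAXX knockout cells, 75 in ATRX knockout cells and 107 in wildtype. The Tudor protein Tdrd1, a scaffold for PIWI proteins, had 53 reads in DAXX knockout cells, 63 in ATRX knockout cells and 94 in wildtype. Tdrd5, another Tudor protein, had 80 reads in DAXX knockout cells, 69 in ATRX knockout cells and 120 in wildtype. Piwil4 and Tdrd5 overlap exons of genes on the opposite strand. The helicase Tdrd9 had 7 reads in DAXX knockout cells, 16 in ATRX knockout cells and 16 in wildtype, at or near 1 CPM. Asz1, a piRNA factor at the mitochondrial membrane, had 0 reads in DAXX knockout cells, 0 in ATRX knockout cells and 1 in wildtype.

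In the axis and synaptonemal complex group, Hormad2 fell furthest of the members called in DAXX knockout cells and Syce2 was at or slightly above wildtype. Hormad2 (chr11:4345814-4441105, minus strand) marks unpaired chromosome axes for checkpoint control. It had 13 reads in DAXX knockout cells, 31 in ATRX knockout cells and 139 in wildtype, or 1.19, 2.24 and 9.58 CPM in that order. It fell by 3.01 (-3.95 to -2.19) in DAXX knockout cells and by 2.10 (-2.71 to -1.53) in ATRX knockout cells, at 12.4% of wildtype in DAXX knockout cells and 23.4% in ATRX knockout cells. One of its transcripts had 10 reads in DAXX knockout cells, 18 in ATRX knockout cells and 76 in wildtype. The other had 3, 13 and 63 in that order, so both were low in both knockouts.

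Its relative Hormad1 had 34 reads in DAXX knockout cells, 44 in ATRX knockout cells and 114 in wildtype and log2 folds of -1.33 (-1.93 to -0.77) in DAXX knockout cells and -1.31 (-1.84 to -0.79) in ATRX knockout cells, with intervals that reached inside 2-fold. Syce2, a central element protein and the member with the highest mean level per kilobase, had 497 reads in DAXX knockout cells, 672 in ATRX knockout cells and 619 in wildtype, or 45.5, 48.5 and 42.6 CPM in that order. Its log2 folds were 0.09 (-0.08 to 0.27) in DAXX knockout cells and 0.19 (0.03 to 0.35) in ATRX knockout cells. Syce1, another central element protein, lay on the other side of wildtype with 163 reads in DAXX knockout cells, 205 in ATRX knockout cells and 358 in wildtype and log2 folds of -0.72 in DAXX knockout cells and -0.74 in ATRX knockout cells, and both intervals lay wholly below 0.

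The transverse filament gene Sycp1 had 50 reads in DAXX knockout cells, 88 in ATRX knockout cells and 155 in wildtype. The axis gene Sycp2 had 27 reads in DAXX knockout cells, 57 in ATRX knockout cells and 64 in wildtype. Sycp3, also of the axis, had 41 reads in DAXX knockout cells, 116 in ATRX knockout cells and 124 in wildtype, low in DAXX knockout cells alone, with log2 folds of -1.19 (-1.73 to -0.67) in DAXX knockout cells and -0.03 (-0.41 to 0.35) in ATRX knockout cells. Between the ATRX knockout and the DAXX knockout its fold was 1.16 (0.63 to 1.71), which was not called. The overlapping gene Chpt1, on the opposite strand, shares 45.6% of the 36-base stretches of Sycp3, so the Sycp3 reads cannot be assigned with certainty. By group, the median log2 fold against wildtype was lowest for the axis and synaptonemal genes in DAXX knockout cells, at -1.17. That median is the value of Sycp3 itself, so it carries the same uncertainty. In ATRX knockout cells their median was -0.73, and the lowest was that of the recombination and cohesin group, at -0.79.

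Other genes of the same pathways, which are no members, were read in the same way. Over all genes tested, 1.55% were called lower in DAXX knockout cells and 1.15% in ATRX knockout cells. Of 12 other piRNA genes tested, 2 were called lower in DAXX knockout cells and 1 in ATRX knockout cells, with medians over the 11 measured of -0.91 in DAXX knockout cells and -0.52 in ATRX knockout cells. Gpat2, needed for piRNA production in mouse testis, had 16 reads in DAXX knockout cells, 29 in ATRX knockout cells and 171 in wildtype and fell in both knockouts, with log2 folds of -3.01 (-3.85 to -2.27) in DAXX knockout cells and -2.49 (-3.11 to -1.92) in ATRX knockout cells. Fkbp6, a co-chaperone of the pathway, had 3 reads in DAXX knockout cells, 12 in ATRX knockout cells and 44 in wildtype and fell by 3.46 (-5.80 to -1.82) in DAXX knockout cells.

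Of 30 other meiosis genes listed, 26 were found. In DAXX knockout cells 2 of 20 tested were called lower, and in ATRX knockout cells 2 of 21. Medians were -0.42 in DAXX knockout cells and -0.23 in ATRX knockout cells. Well expressed genes of this list were not called. Trip13 was at 0.01 in DAXX knockout cells and -0.29 in ATRX knockout cells, Mlh3 at -0.17 and -0.23, and Mnd1 at 0.39 and 0.19, in that order. Stra8 was lower without a call in DAXX knockout cells, at -0.79 (-1.05 to -0.54), and at -0.08 in ATRX knockout cells. Psmc3ip was at -0.45 in DAXX knockout cells and -0.11 in ATRX knockout cells, and Ythdc2 at -0.08 and -0.29, in that order. Rec114, a partner of the break machinery, had 6 reads in DAXX knockout cells, 5 in ATRX knockout cells and 88 in wildtype and fell in both knockouts, with log2 folds of -3.46 (-4.95 to -2.28) in DAXX knockout cells and -4.07 (-5.73 to -2.79) in ATRX knockout cells. Mcmdc2, which acts in meiotic recombination, had 12 reads in DAXX knockout cells, 23 in ATRX knockout cells and 61 in wildtype and fell by 1.94 (-2.96 to -1.03) in DAXX knockout cells. The synaptonemal gene Six6os1, listed as 4930447C04Rik, had 91 reads in DAXX knockout cells, 85 in ATRX knockout cells and 276 in wildtype and fell by 1.63 (-2.00 to -1.28) in ATRX knockout cells.

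Somatic counterparts of the members did not follow them. Their log2 folds ran from 0.01 to 0.46 in DAXX knockout cells, with a median of 0.12. In ATRX knockout cells they ran from -0.06 to 0.34, with a median of 0.08. Of these 14 genes, 0 were called in either knockout. In the set of all genes tested, 1.55% were called lower and 0.487% higher in DAXX knockout cells. For ATRX knockout cells these shares were 1.15% and 0.695%. At such shares, 0 calls among 14 genes carry little information. Primordial germ cell genes were split. Of 8 tested, Ifitm3 was called higher in DAXX knockout cells, with 1698 reads in DAXX knockout cells, 1191 in ATRX knockout cells and 852 in wildtype. Dppa3 was called lower in ATRX knockout cells, with 60 reads in DAXX knockout cells, 10 in ATRX knockout cells and 123 in wildtype. Of 15 oocyte genes 3 were tested, and Sohlh2, a transcription factor of early germ cells, had 25 reads in DAXX knockout cells, 50 in ATRX knockout cells and 258 in wildtype and fell in both knockouts, with log2 folds of -2.96 (-3.61 to -2.36) in DAXX knockout cells and -2.30 (-2.77 to -1.86) in ATRX knockout cells. Of 15 spermatid and late spermatocyte genes 2 were tested and 0 called, too few to carry information.

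Genes known to repress germ cell genes in ESCs, 19 in all, had medians of -0.02 in DAXX knockout cells and -0.07 in ATRX knockout cells. The share called lower among all genes tested was 1.55% in DAXX knockout cells and 1.15% in ATRX knockout cells. Dnmt3l, a cofactor of DNA methylation, was the one repressor called, with 195 reads in DAXX knockout cells, 411 in ATRX knockout cells and 905 in wildtype. It fell by 1.80 (-2.03 to -1.58) in DAXX knockout cells and was at -1.07 (-1.24 to -0.90) in ATRX knockout cells. Dnmt3b, a DNA methyltransferase, had 922 reads in DAXX knockout cells, 606 in ATRX knockout cells and 1347 in wildtype and was at -1.08 (-1.23 to -0.94) in ATRX knockout cells, which was not called.

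**Figure D4:**
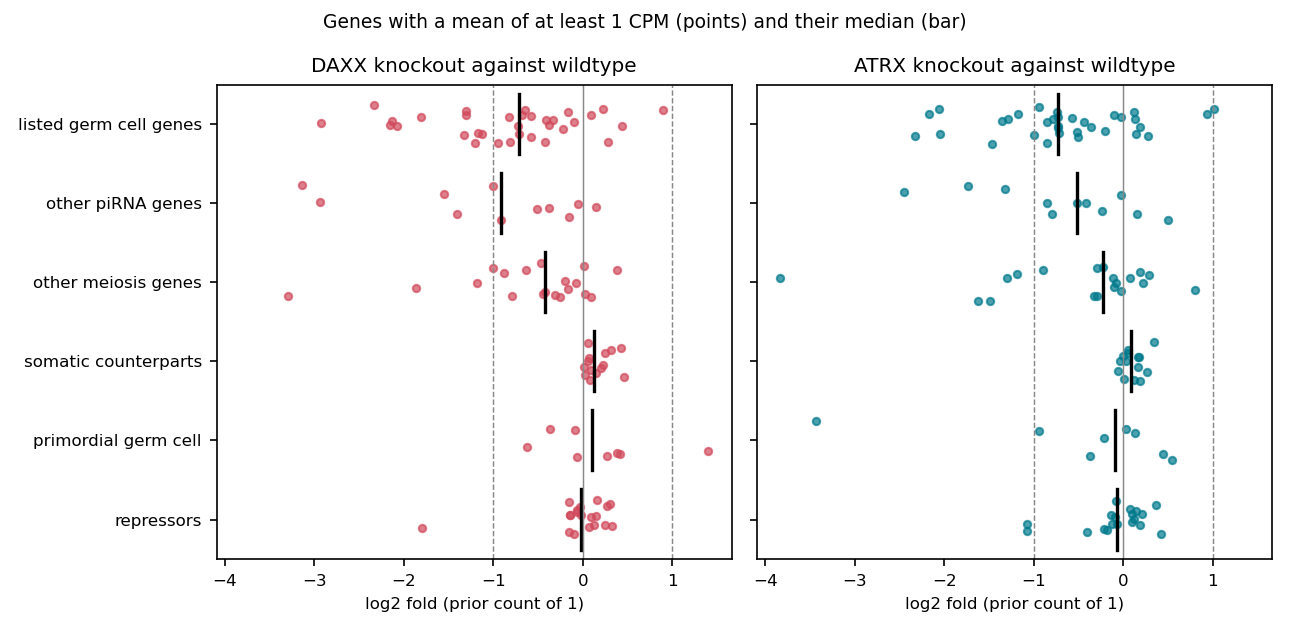
Log2 fold against wildtype (x axis, prior count of 1) of genes that averaged at least 1 CPM, as points, with list medians as bars, in DAXX knockout cells (left) and ATRX knockout cells (right). The listed germ cell genes had medians of -0.71 and -0.73, and their somatic counterparts 0.12 and 0.08.

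Markers of other cell types also moved. Of 12 primitive endoderm markers, 11 were tested, and 10 were called lower in DAXX knockout cells and 3 in ATRX knockout cells. The shares called lower among all genes tested were 1.55% in DAXX knockout cells and 1.15% in ATRX knockout cells. The summed level of the primitive endoderm markers was 208 CPM in DAXX knockout cells, 331 in ATRX knockout cells and 578 in wildtype. Sox17 and Foxa2 were at 0 reads in DAXX knockout cells, and none was at 0 in the other libraries. Of 12 feeder fibroblast markers, 7 were tested, and 4 were called lower in DAXX knockout cells and 1 in ATRX knockout cells, with summed levels of 15.1 CPM in DAXX knockout cells, 24.6 in ATRX knockout cells and 39.1 in wildtype. Of these, Col3a1, Postn, Lum and Dcn were at 0 in both knockouts, Col6a1 in DAXX knockout cells and Lum in wildtype. Over 10 genes, markers of 2-cell-like cells summed to 8.70 CPM in DAXX knockout cells, 14.3 in ATRX knockout cells and 15.4 in wildtype. Over 12 genes, markers of somatic gonad cells summed to 14.3, 16.0 and 11.9 CPM in that order, and 0 genes of either list were called in either knockout. Few genes of these lists were tested, so 0 calls carry little information. Tdpoz4 was at 0 in both knockouts, and Tcstv1 and Zfp352 in ATRX knockout cells. Sox9, Hsd3b1 and Foxl2 of the gonad list were at 0 in all libraries, Nr5a1 in both knockouts, and Cyp17a1 in DAXX knockout cells and wildtype. The part of these other cell types in the member values was not tested.

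The members lie on 17 chromosomes, with Tex11 and Taf7l on X, in GENCODE M21 on GRCm38. For each called member, the nearest 2 tested genes on either side were read. Of 32 neighbours of the 8 members called lower in DAXX knockout cells, 0 were called and the median log2 fold was -0.09. Of 24 neighbours of the 6 called lower in ATRX knockout cells, 0 were called and the median was -0.01. Over all genes tested, 1.55% were called lower in DAXX knockout cells and 1.15% in ATRX knockout cells. At shares this small, 0 calls among so few genes carry little information. Some neighbours were distant, such as those of Rpl10l at 1050 to 2890 kb. The lowest neighbour was Hspa4l in DAXX knockout cells and Tex19.2 in ATRX knockout cells. Hspa4l, 52.8 kb from Slc25a31, was at -1.32 in DAXX knockout cells and -0.69 in ATRX knockout cells. The copy Tex19.2, 29.8 kb from Tex19.1 and one of these neighbours, was at -1.05 (-2.14 to -0.06) in DAXX knockout cells and -1.39 (-2.48 to -0.40) in ATRX knockout cells.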

How the data were processed

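Polyadenylated RNA from 3 ESC clones was sequenced, with 1 library for each genotype. The values are read counts as deposited, not normalised, in tables that list each reference sequence, its length and its aligned reads. Bowtie 1.1.2, SAMtools and GRCm38.p4 were used, per the submitters' processing notes. The sources used here give no alignment settings, strand use or annotation release, so reads of overlapping or near-identical genes cannot be parted. Per the file rows, 48843 transcripts and 1564 repeat sequences were counted, and only transcripts were used.

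Counts were summed per symbol and scaled by the trimmed mean of M values (edgeR 4.0.16, R 4.3.3), with factors of 0.973 for the DAXX knockout, 0.990 for the ATRX knockout and 1.04 for wildtype. With 0 residual degrees of freedom no test of genotype was possible, so a rule of size was used over all genes. A call needed the whole exact conditional binomial (Clopper-Pearson) 95% interval beyond 2-fold and at least 1 CPM in either library. The calling rule was run on simulated counts that held counting error only. Variation between clones or libraries, and changes in genes with few reads, were not checked. Medians used a prior count of 1 and genes with a mean of at least 1 CPM. PCR copies are not independent molecules, and the intervals leave this out.

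Positions, overlaps and shared 36-base stretches are from GENCODE M21, in which 48315 transcripts were found. The annotation may differ from the submitters'. Promoters are from RefSeq (GRCm38.p6). The members and lists were chosen with earlier results of these data known. Named in full were members called in any comparison and the 4 with the highest mean level per kilobase called in none, then up to 4 called genes of each related list and the counterparts of called members. Alternatives changed the scaling, the CPM limit, the fold limit, the interval, the depth and the transcripts used.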

Additional observations from a re-analysis of the deposited data

Results flagged for a closer look

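Tex15 and Rec8 were the members whose whole counting intervals lay on opposite sides of wildtype in the knockouts. Tex15 was at -0.58 on the log2 scale in DAXX knockout cells and 0.94 in ATRX knockout cells. Rec8 was at -0.38 in DAXX knockout cells and 0.28 in ATRX knockout cells. Each direction rests on 1 library, both folds use the same wildtype library, and the difference between genotypes was not tested.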

How the results depend on the processing

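Of 135 fold values of called members under 5 alternatives, 131 kept their direction and stayed called or not called as before. The values cover every comparison of each member, including those in which it had no call to lose. Part of this stability was also fixed in advance. Dropping the filter on low values cannot change a fold, which covers 27 of the values. Counting the most abundant transcript alone cannot change Dazl, Rpl10l, Slc25a31 or Piwil2, which have a single transcript. The exceptions were Slc25a31, no longer called with counts thinned to the smallest library (-2.28 in DAXX knockout cells and -2.05 in ATRX knockout cells), Stag3 in DAXX knockout cells with the most abundant transcript (-1.11), and Piwil2 between the knockouts, whose value of -0.02 was 0.00 under scaling by total counts. Scaling by total counts or by DESeq2 size factors moved no count of members called, and leaving out members that share exons or sequence, an alternative chosen after seeing the data, left 7 lower in DAXX knockout cells and 5 in ATRX knockout cells.

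Looser rules gave more calls. With intervals beyond 1.5-fold, 12 members were lower in DAXX knockout cells, 10 lower and 2 higher in ATRX knockout cells, and 1 lower and 2 higher in ATRX against DAXX knockout cells. With a fold beyond 2-fold and no interval, these were 13 lower, then 9 lower and 1 higher, then 1 lower and 4 higher. Over all genes, 412 lower and 184 higher in DAXX knockout cells, 364 and 336 in ATRX knockout cells, and 193 and 325 between the knockouts passed 1.5-fold, and 796 and 208, 607 and 327, and 279 and 604 passed with no interval. A stricter minimum of 5 CPM gave fewer calls over all genes. At that limit 108 were lower in DAXX knockout cells, 88 lower in ATRX knockout cells and 64 higher between the knockouts. Of the members, 7 were lower in DAXX knockout cells, 5 lower in ATRX knockout cells and 1 higher between the knockouts. The member median in ATRX knockout cells was -0.58 with thinned counts, and that between the knockouts was -0.02 with the most abundant transcript and 0.24 over members with at least 1 read. The causes were not tested.

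No paired analysis was possible because each genotype has 1 library. Leaving out a library was not run for the same reason. Depth limits Spo11, Asz1, Tex101, Tdrd9, Mei1, Nanos3, Taf7l, Brdt and Slc25a31 most, the members with at most 38 reads in any library.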
